A study of Mus musculus with 6 samples.

Results

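The genes described are 10 of the Notch pathway: the receptors Notch1, Notch2, Notch3 and Notch4, the ligands Dll1, Dll3 and Jag1, and the transcription factors Hes1, Hes6 and Hey1. They were taken by symbol from the deposited count files, where all 10 were found among 24984 symbols, and all 10 passed the filter on low counts that left 15663 genes for testing. RNA was measured in E14TG2a, a mouse embryonic stem cell line kept in N2B27, a serum-free medium. The 3 groups, of 2 libraries each, were unmodified cells (WT), a METTL3-knock-out line made by CRISPR/Cas9 disruption of the endogenous gene (KO), and a METTL3 D395A line, made by CRISPR/Cas9-mediated integration of a substitution in the catalytic motif (D395A). METTL3 is the enzyme that writes N6-methyladenosine on RNA, and the series asks how that mark and circular RNA interact. Circular RNA and the mark itself were not analysed here. The labels name no separate clones, so genotype and the history of a line cannot be told apart, and they do not say whether the 2 libraries of a group were separate cultures. The p-values therefore speak only to the spread among the libraries at hand, which may be technical.

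Notch receptors span the cell membrane and are engaged by Delta-like or Jagged ligands on a neighbouring cell. Binding exposes the receptor to an ADAM protease and then to γ-secretase, which frees the intracellular domain to enter the nucleus, join the DNA-binding protein RBPJ and a Mastermind coactivator, and switch on genes of the HES and HEY families of repressors. In mouse embryonic stem cells the pathway is known mostly for its part in the entry into neural and other differentiated fates.

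Gene counts totalled between 22859491 (D395A replicate 1) and 40476809 (WT replicate 1) per library, and 1 count was worth 0.0246 to 0.0426 CPM. CPM are counts scaled to a common library size with TMM factors. Mettl3 itself stood at 28.5 and 31.6 CPM in WT, 7.82 and 6.17 in KO and, in D395A, 21.1 and 23.4. All 7 embryonic stem cell markers examined (Pou5f1, Sox2, Nanog, Esrrb, Zfp42, Dppa5a and Tdgf1) were above 1 CPM in every group. Their summed level was 3830 to 3890 CPM for WT, 4430 to 4450 CPM for KO and 1870 to 1930 CPM in D395A. In D395A 6 of the 7 were lower than in WT and none was higher, and in KO 3 were higher and 2 lower. Nanog went from 931 and 910 CPM in WT to 1550 and 1610 in KO. Tdgf1 went from 761 and 788 CPM to 512 and 486. Over all genes tested, 33.6% were higher and 32.6% lower in KO, and 36.3% and 34.0% in D395A. Counts of markers here and below have this background. The chi-square between the libraries of a group, divided by its degrees of freedom, was 3.23 for WT, 6.61 for KO and 11.4 for D395A, above the value of 1 that sampling alone gives.

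Both mutant lines held more Notch1 and Notch2 RNA and less Notch4 RNA than WT, while Notch3 and Jag1 did not pass the test in either. Against WT, 5 of the 10 genes were higher in KO (Notch1, Notch2, Dll3, Hes1 and Hes6) and 1 was lower (Notch4). Over all genes tested, 33.6% were called higher and 32.6% lower in KO, at an adjusted p under 0.05 in edgeR's quasi-likelihood test. In D395A 6 of the 10 were higher (Notch1, Notch2, Dll1, Dll3, Hes6 and Hey1) and 2 were lower (Notch4 and Hes1), beside 36.3% of all genes higher and 34.0% lower. With 10 genes and such backgrounds, the number of calls does not set these genes apart from the rest of the transcriptome. The median log2 fold change of the 10 was 0.35 in KO and 0.97 in D395A, beside 0.01 and 0.02 over all genes tested. These comparisons share the WT libraries. The 10 genes were chosen with earlier results of these data known, so their medians are no independent test against all genes.

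**Figure D1:**
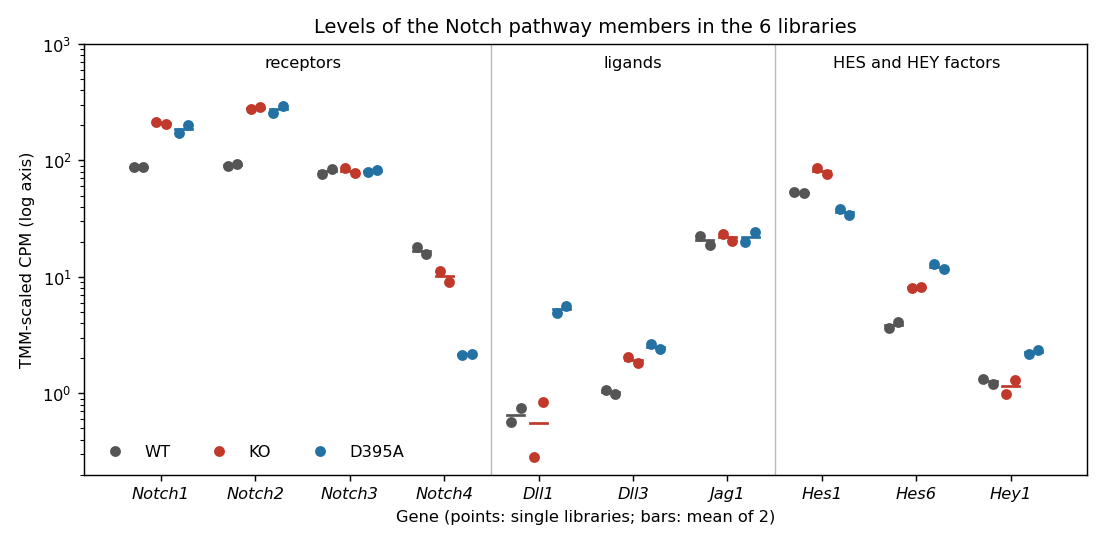
Level of each of the 10 genes in the 6 libraries, as TMM-scaled CPM on a log axis; points are single libraries and bars are means of 2. Notch1 and Notch2 sat between 173 and 295 CPM in the mutant libraries and at or below 94.0 CPM in WT, and Notch4 fell to 2.13 and 2.19 CPM in D395A.

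The promoters of 4 genes are shown because the results turn on them: Notch1 and Notch2, which rose together, and Notch4 and Dll1, which moved furthest in opposite directions in D395A. The sequences are from RefSeq (GRCm38.p6), 250 bases before to 50 after the annotated start, written 5′ to 3′ on the gene's strand. Capitals mark matches on either strand to the N box, CACNAG, a sequence bound by HES repressors.
Notch1 (chr2:26503773-26504072, minus strand): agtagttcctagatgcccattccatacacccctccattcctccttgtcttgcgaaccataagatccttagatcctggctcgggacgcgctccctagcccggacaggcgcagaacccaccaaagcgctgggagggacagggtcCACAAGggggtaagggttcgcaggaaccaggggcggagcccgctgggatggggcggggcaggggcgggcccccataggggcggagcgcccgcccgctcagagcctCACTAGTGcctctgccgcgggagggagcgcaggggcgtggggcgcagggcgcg
Notch2 (chr3:98013288-98013587, plus strand): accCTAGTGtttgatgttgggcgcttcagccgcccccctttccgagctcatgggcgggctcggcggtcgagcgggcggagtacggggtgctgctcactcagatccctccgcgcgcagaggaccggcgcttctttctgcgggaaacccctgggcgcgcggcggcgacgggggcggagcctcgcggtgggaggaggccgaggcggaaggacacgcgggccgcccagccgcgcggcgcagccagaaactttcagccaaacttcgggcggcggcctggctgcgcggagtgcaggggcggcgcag
Notch4 (chr17:34564045-34564344, plus strand): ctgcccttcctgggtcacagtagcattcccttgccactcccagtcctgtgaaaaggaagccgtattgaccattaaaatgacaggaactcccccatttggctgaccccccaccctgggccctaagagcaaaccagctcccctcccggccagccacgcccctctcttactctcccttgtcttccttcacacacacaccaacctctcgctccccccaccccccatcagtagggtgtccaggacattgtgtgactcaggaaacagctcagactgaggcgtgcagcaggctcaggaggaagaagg
Dll1 (chr17:15376883-15377182, minus strand): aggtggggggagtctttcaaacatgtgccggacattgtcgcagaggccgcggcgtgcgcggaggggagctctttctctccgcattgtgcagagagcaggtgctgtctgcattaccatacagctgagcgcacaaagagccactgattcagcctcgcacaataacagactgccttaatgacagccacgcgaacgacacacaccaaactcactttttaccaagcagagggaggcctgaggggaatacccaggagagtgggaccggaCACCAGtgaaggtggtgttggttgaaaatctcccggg
Notch1 holds 3 matches, of which the last 2 overlap on opposite strands (CACTAG and CTAGTG), Notch2 and Dll1 hold 1 each and Notch4 holds none. The table has a second Dll1 window, at a start inside the gene (chr17:15375774-15376073), which is not shown and holds no match. The RefSeq start of Notch1 lies 12841 bases inside the most upstream GENCODE start of the gene.

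Promoters were found for 8 of the 10 genes in that table, in 10 windows, and not for Hes1 and Hey1. The N box was present in 5 of the 10 windows and in 42.5% of the 32851 windows of 300 bases in the whole table. Outside the promoters shown, Notch3, which did not pass the test in either line, held 2 matches. Dll3, higher in both lines, held none, and neither did Jag1. Hes6 held none in the window nearest its GENCODE start and 2 in the other. The core of the RBPJ site, TGGGAA, was in 0 of the 10 windows on either strand, against 25.6% of all windows, and the E box CACGTG was also in 0 of 10, against 7.15%. A match is only a stretch of letters, and a window without one covers 300 bases of each gene.

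Notch1, the receptor best known from lymphocyte and neural development (chromosome 2, 26457903 to 26516663 in GRCm38), had 87.3 and 88.5 CPM in WT, 212 and 206 in KO and, in D395A, 173 and 203. Both mutant groups lay above WT without overlap, KO by a log2 fold change of 1.25 ± 0.08 (SE, adjusted p = 2.0e-08) and D395A by 1.10 ± 0.08 (adjusted p = 5.6e-08). D395A and KO differed by -0.15, with a 95% interval of -0.31 to 0.01 (adjusted p = 0.11). Without D395A replicate 2 that difference was -0.27 and passed the test (adjusted p = 0.0024). Exons on the opposite strand overlap 9.76% of Notch1 exon bases. One of those genes, 0610009E02Rik, held 12 to 128 counts per library, against 3211 to 7457 for Notch1. The other, Gm13568, was not among the counted symbols, so its part in the Notch1 counts is unknown.

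Notch2, a receptor with a broad expression pattern (chromosome 3, 98013527 to 98150361), showed the largest rise among the receptors. It stood at 89.3 and 94.0 CPM in WT, 277 and 290 in KO and, in D395A, 258 and 295. The log2 fold change was 1.63 ± 0.08 in KO (adjusted p = 2.0e-09) and 1.59 ± 0.08 in D395A (adjusted p = 2.0e-09), and the mutant libraries overlapped each other. Their difference was -0.04, with a 95% interval of -0.20 to 0.12. No exon of another annotated gene overlaps Notch2 on the opposite strand.

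Notch3, a receptor of smooth muscle and progenitor cells (chromosome 17, 32120820 to 32166852), had 76.5 and 84.6 CPM in WT, 85.4 and 78.5 in KO and, in D395A, 80.2 and 82.3. The 3 groups overlapped. Differences from WT were 0.03 in KO (95% interval -0.13 to 0.18) and 0.01 in D395A (-0.14 to 0.17). Exons of Gm17276, which was not among the counted symbols, overlap 6.03% of Notch3 exon bases on the opposite strand.

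Notch4, a receptor known mainly from endothelium (chromosome 17, 34564268 to 34588503), went the other way. Its level was 17.9 and 15.8 CPM in WT, 11.2 and 9.10 in KO and, in D395A, 2.13 and 2.19, with no overlap between any 2 groups. The log2 fold change was -0.73 ± 0.12 in KO (adjusted p = 0.00016) and -2.96 ± 0.15 in D395A (adjusted p = 3.5e-09), a 7.77-fold lower level. D395A was below KO by a log2 difference of -2.23 ± 0.16 (adjusted p = 1.3e-07). The low values in D395A rest on 50 and 79 counts. Of 6 endothelial markers (Cdh5, Kdr, Tek, Tie1, Emcn and Erg), 4 were tested, and 3 were higher and none lower in each mutant line. All 6 together summed to 12.8 to 13.6 CPM in WT, 24.1 to 27.4 CPM for KO and 22.5 to 24.6 CPM in D395A. Most of each sum was Tek alone (11.7 and 11.6 CPM in WT, 24.5 and 21.6 in KO, 18 and 20 in D395A). Kdr had 1.52 and 0.827 CPM in WT, 0.853 and 0.864 in KO and, in D395A, 1.36 and 1.58. Emcn was at 0 counts in all libraries and Cdh5 at most 0.490 CPM. In bulk RNA, fewer cells that express a gene and less RNA per cell cannot be told apart.

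**Figure D2:**
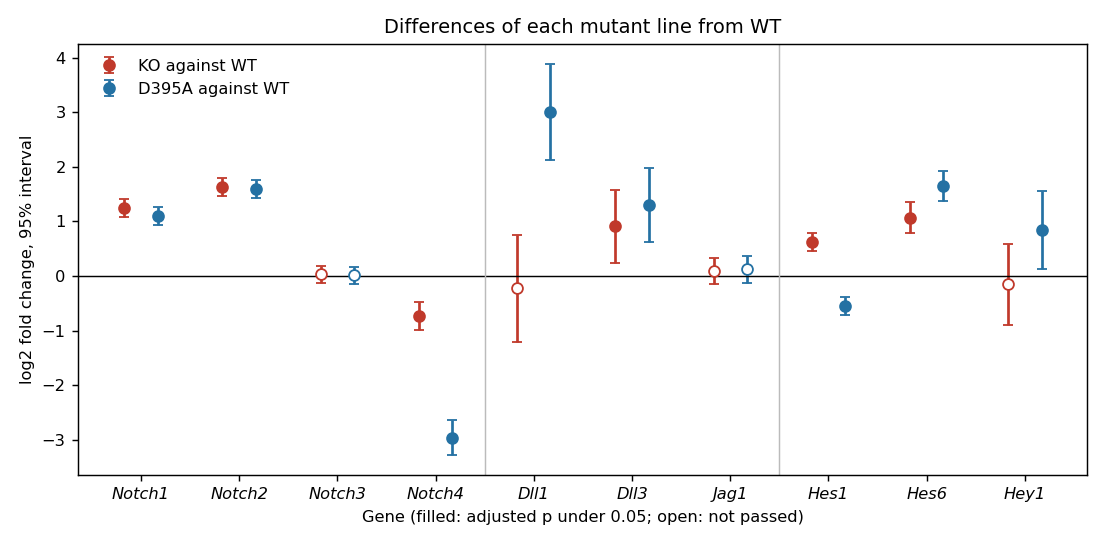
Log2 fold change of each gene in KO and in D395A against WT, with 95% intervals from the fit; filled points passed the test at an adjusted p under 0.05 and open points did not. Notch1 and Notch2 lie above 0 in both lines and Notch4 below, Hes1 lies above 0 in KO and below in D395A, and the intervals of the low-count genes Dll1, Dll3 and Hey1 are the widest.

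Levels were compared between receptors per kilobase of exon. In WT, Notch3 held the largest share of the summed level of the 4 receptors (37.2% ± 1.41, SD, n = 2), followed by Notch2 (31.8% ± 0.141), Notch1 (23.1% ± 0.566) and Notch4 (7.83% ± 0.948). In both mutant lines Notch2 held the largest share, 50.2% ± 1.91 in KO and 52.1% ± 0.566 in D395A. The share of Notch3 was 19.4% ± 1.06 and 20.5% ± 1.27 there, while its own level did not pass the test. Notch4 made up 2.41% ± 0.346 of the sum in KO and 0.546% ± 0.0346 in D395A. The sum itself was 26.1 and 27.3 CPM per kilobase in WT, 52.5 and 52.2 in KO and, in D395A, 46.3 and 52.0, so the mutant libraries all stood above those of WT.

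**Figure D3:**
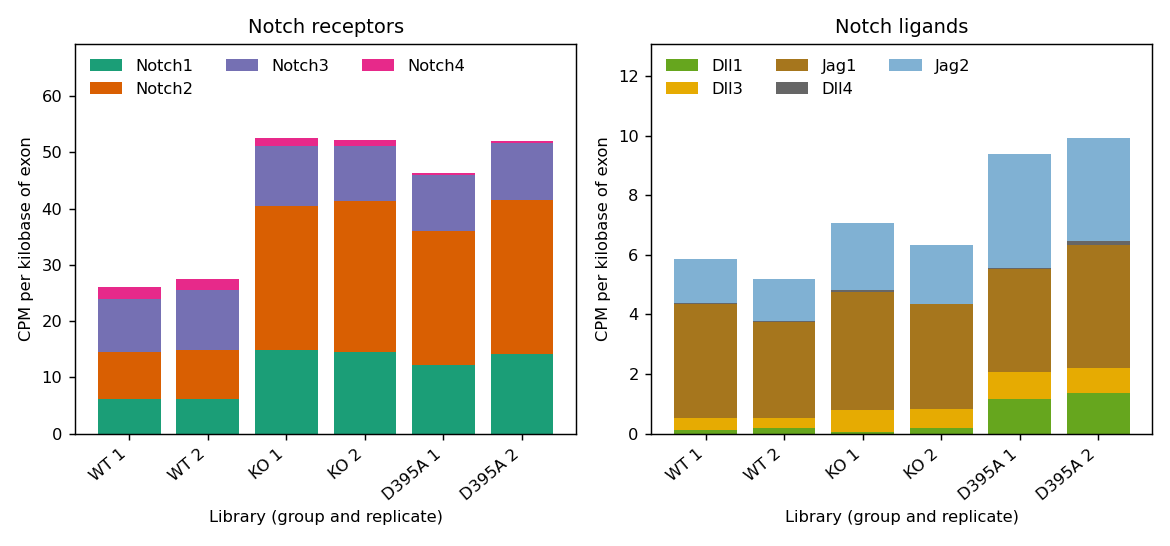
Summed length-scaled levels (CPM per kilobase of exon) of the 4 receptors, left, and of 5 ligands, right, in each library, with the part of each gene in its colour. The receptor sum rose from at most 27.3 in WT to at least 46.3 in the mutant libraries, and Dll1 and Jag2 took a larger part of the ligand sum in D395A.

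Among the ligands, Dll1 separated the mutant lines. Dll1, a Delta-like ligand that activates Notch in neighbouring cells during somite and neural development (chromosome 17, 15367354 to 15376872), had 0.565 and 0.744 CPM in WT, 0.284 and 0.836 in KO and, in D395A, 4.86 and 5.68. Both D395A libraries stood above all others. The log2 fold change in D395A was 3.01 ± 0.40 (8.05-fold, adjusted p = 2.5e-05). In KO it was -0.22, with a 95% interval of -1.20 to 0.76 (adjusted p = 0.68), and D395A exceeded KO by 3.23 ± 0.42 (adjusted p = 3.4e-05). The KO libraries held only 10 and 29 counts: without KO replicate 1 the KO value was 0.36 (adjusted p = 0.46), and without KO replicate 2 it was -1.18 and passed (adjusted p = 0.047). The difference between the lines was 2.65 and 4.2 in those settings. Exons of A930024N18Rik overlap 20.5% of Dll1 exon bases on the opposite strand, so part of its counts is uncertain.

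Cells of other types can bring Dll1 RNA, and their markers were measured beside it. The 6 paraxial mesoderm markers (T, Tbx6, Msgn1, Mesp1, Mesp2 and Meox1) summed to 4.93 to 7.82 CPM in WT, 7.00 to 7.03 CPM for KO and 5.24 to 5.82 CPM in D395A, with Msgn1 and Mesp1 at most 0.221 CPM in any library. Of the 4 tested, 2 were higher and 1 was lower in D395A: Mesp2 (1.48 and 0.965 CPM in WT, 3.11 and 3.85 CPM in D395A) and Meox1 were higher, and T (4.89 and 3.36 CPM in WT, 0.0852 and 0.222 CPM in D395A) was lower. In KO 1 was higher and 1 lower. Of 8 neural progenitor markers, 5 were tested, and 4 of these were higher and 1 was lower in D395A. Their summed level was 38.0 to 39.3 CPM in WT, 40.3 to 42.9 CPM for KO and 37.2 to 46.9 CPM in D395A, where none was at 0 counts in both libraries. In WT, Neurog2, Pax3 and Fabp7 were at 0. Pax6, a neural progenitor factor, went from 1.18 and 1.41 CPM in WT to 10.6 and 11.3 CPM in D395A, while Nes, the progenitor filament, went from 34.1 and 32.1 CPM to 14.0 and 16.2 CPM. Of 6 neuron markers, 3 were higher and 3 lower in D395A, and their sum was 142 to 146 CPM in WT, 64.2 to 64.5 CPM for KO and 79.6 to 84.8 CPM in D395A, where the most abundant, Stmn2 and Tubb3, were lower. The 6 extraembryonic endoderm markers summed to 24.2 to 25.5 CPM in D395A against 8.35 to 9.34 CPM in WT, mostly through Foxa2 (20.2 and 22.5 CPM), while Afp and Ttr were at 0 counts there. Of the 4 tested, Foxa2 was higher in D395A, Gata4 (5.68 and 4.80 CPM in WT, 1.11 and 1.39 CPM in D395A) and Gata6 (2.38 and 2.45 CPM, 1.19 and 0.998 CPM) were lower, and Sox17 did not pass. The 6 fibroblast or feeder markers summed to 28.1 to 28.2 CPM in WT, 22.3 to 22.5 CPM for KO and 11.5 to 11.9 CPM in D395A. Of the 5 tested, 2 were higher and 3 lower in D395A, and 1 was higher and 2 lower in KO. In KO, 1 neural progenitor marker and 3 neuron markers were lower and none higher. Of the extraembryonic endoderm markers, 1 was higher and 2 lower in KO. The part of cells of other types in the level of Dll1 was not tested.

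Dll3, a divergent Delta-like protein that stays mostly inside the cell and dampens Notch activity (chromosome 7, 28293553 to 28302238), had 1.06 and 0.992 CPM in WT, 2.05 and 1.82 in KO and, in D395A, 2.64 and 2.41. The 3 groups did not overlap. It rose by 0.91 ± 0.31 in KO (adjusted p = 0.02) and by 1.30 ± 0.31 in D395A (adjusted p = 0.0023). Its counts ran from 36 to 87, and the KO call ended without WT replicate 1 (adjusted p = 0.072), WT replicate 2 (0.093) or KO replicate 1 (0.077).

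Jag1, a Jagged ligand and the most abundant ligand per kilobase in WT (chromosome 2, 137081456 to 137116644), stood at 22.4 and 18.7 CPM in WT, 23.2 and 20.4 in KO and, in D395A, 20.1 and 24.2. All groups overlapped. The log2 difference from WT was 0.09 in KO (95% interval -0.15 to 0.33) and 0.12 in D395A (-0.13 to 0.36).

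With Jag2 and Dll4 added, the summed level of 5 ligands was 5.84 and 5.19 CPM per kilobase in WT, 7.08 and 6.33 in KO and, in D395A, 9.37 and 9.91. Jag1 made up 63.8% ± 2.76 (SD, n = 2) of it in WT, 55.8% ± 0.636 in KO and 39.3% ± 3.46 in D395A. Dll1 made up 2.84% ± 0.785, 2.04% ± 1.54 and 13.0% ± 0.919, and Jag2 26.2% ± 1.91, 31.6% ± 0.495 and 37.7% ± 4.10. In every library the receptor sum was larger than the ligand sum on this scale.

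The 3 genes of the HES and HEY families did not move as a block. Hes1, a repressor that oscillates in progenitor cells and is a standard readout of Notch activity, though other signals also drive it (chromosome 16, 30064384 to 30067796), was the most abundant of the 3. It had 53.2 and 52.4 CPM in WT, 85.5 and 76.9 in KO and, in D395A, 38.4 and 34.1. The groups did not overlap, and the lines lay on opposite sides of WT. Hes1 rose by 0.62 ± 0.07 in KO (adjusted p = 8.5e-06) and its log2 fold change was -0.55 ± 0.08 in D395A (adjusted p = 3.8e-05). The lines differed by -1.17 ± 0.08 (adjusted p = 7.6e-08), and both directions were found in all 15 alternatives run. Of all genes tested, 453 (2.89%) were called higher in KO and lower in D395A, and 299 (1.91%) the reverse. Hes1 was the sole gene of the 10 in either class.

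Around Hes1, 3 tested genes started within 100 kb, all of them upstream and all lower in D395A, beside 34.0% of all genes tested. The nearest, 9030404E10Rik, starts 24.9 kb away and held 65 and 63 counts in WT, 12 and 22 in KO and, in D395A, 0 and 3 (adjusted p = 1e-04 for D395A against WT). It was also lower in KO (adjusted p = 0.017), where Hes1 was higher. At 55.7 kb, 4632428C04Rik held 41 and 37 counts in WT, 35 and 22 in KO and, in D395A, 9 and 8 (adjusted p = 0.013). Gm1968, at 85.2 kb, held 15 and 20 counts in WT, 7 and 4 in KO, and 0 in both D395A libraries (adjusted p = 0.0011). Tested neighbours were found for 6 of the other genes, and none for Notch2, Jag1 and Hey1. Of the 9 neighbours of Notch4, 6 were higher and 1 lower in D395A, where Notch4 was lower. The sole neighbour of Dll1, Fam120b, starts 19.3 kb away and was higher in both KO (1.62, adjusted p = 1.8e-08) and D395A (1.96, adjusted p = 2.8e-09). Of the 6 neighbours of Hes6, 2 were higher and none lower in D395A, and of the 11 of Dll3, 6 were higher and 2 lower. Notch1 (2 higher and 2 lower of 4) and Notch3 (1 and 1 of 2) had neighbours on both sides. In KO 4 neighbours of Notch4 were higher and 2 lower, for Dll3 7 and 1, and for Hes6 4 and 1. For Notch1 the counts in KO were 2 and 1, and for Notch3 1 and 1. Over all genes tested, 36.3% were higher and 34.0% lower in D395A, and 33.6% and 32.6% in KO. A part of position in these changes was not tested.

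Hes6, a family member that opposes Hes1 and favours neuronal differentiation (chromosome 1, 91411483 to 91414038), had 3.64 and 4.11 CPM in WT, 7.99 and 8.24 in KO and, in D395A, 12.8 and 11.6. The 3 groups followed each other without overlap. It rose by 1.07 ± 0.13 in KO (adjusted p = 1.1e-05) and by 1.65 ± 0.13 in D395A (adjusted p = 1.6e-07), and D395A exceeded KO by 0.58 ± 0.12 (adjusted p = 0.0015). In KO Hes1 and Hes6 were therefore both higher, and in D395A Hes6 was higher and Hes1 lower.

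Hey1, a related repressor of cardiac and vascular development (chromosome 3, 8663359 to 8667256), had 1.33 and 1.21 CPM in WT, 0.995 and 1.30 in KO and, in D395A, 2.17 and 2.38. WT and KO overlapped, and both D395A libraries were above them. The log2 fold change was -0.15 in KO (95% interval -0.89 to 0.59) and 0.84 ± 0.33 in D395A (adjusted p = 0.037), and D395A exceeded KO by 0.99 ± 0.34 (adjusted p = 0.026). Its 35 to 86 counts make these weak calls: the rise over WT ended without either WT replicate (adjusted p = 0.11 and 0.15) or either D395A replicate (0.056 and 0.13), with the replicate block (0.064) and with the DESeq2 Wald test (0.062). The difference from KO ended without KO replicate 1 (0.12) or D395A replicate 2 (0.11).

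Set directly against each other, D395A was higher than KO for 3 of the 10 genes (Dll1, Hes6 and Hey1) and lower for 2 (Notch4 and Hes1), beside 26.5% of all genes higher and 23.8% lower. Notch1, Notch2, Notch3, Dll3 and Jag1 did not pass. The 10 genes lie on 6 chromosomes, whose median log2 fold changes ran from 0.04 to 0.15 in KO and from -0.04 to 0.13 in D395A.

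The 49 other pathway genes listed by role hold the enzymes, partners and targets around these 10, and 44 of them were tested. Against WT, KO had 30 of them higher and 6 lower, and D395A 28 higher and 6 lower, with medians of 0.43 and 0.40. This list was likewise chosen with earlier results of these data known, so these values are no independent test. Over all genes tested the shares were 33.6% higher and 32.6% lower in KO, and 36.3% higher and 34.0% lower in D395A, and the counts by role have the same background. The genes that cut and glycosylate receptors were higher in 12 of 15 cases and lower in 2 in KO, and higher in 9 and lower in 1 in D395A. Furin, which cleaves the receptor precursor, went from 34.2 and 28.6 CPM in WT to 119 and 121 CPM for KO (a rise of 1.93 ± 0.08) and 98.6 and 99.0 CPM in D395A (1.65 ± 0.08). Psen2, a catalytic subunit of γ-secretase, rose by 1.96 ± 0.09 in KO, from 7.52 and 7.11 CPM to 28.4 and 28.5 CPM, and by 1.19 ± 0.09 in D395A. Lfng, a Fringe enzyme that tunes which ligand a receptor answers, had 1.03 and 0.965 CPM in WT, 0.540 and 0.461 in KO and, in D395A, 2.39 and 2.99. It rose by 1.43 ± 0.36 in D395A (adjusted p = 0.0031), and its fall in KO (-0.99 ± 0.39, adjusted p = 0.039) ended in 8 of the 15 alternatives, with adjusted p of 0.056 to 0.12.

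Nuclear partners held the widest changes. Maml2, a Mastermind coactivator, fell from 8.68 and 10.1 CPM in WT to 0.853 and 0.375 CPM in KO (-3.92 ± 0.28, adjusted p = 8.1e-08), and to 0.894 and 0.998 CPM in D395A (-3.30 ± 0.27, adjusted p = 2.6e-07). The KO value was -4.63 without KO replicate 1 and -3.45 without KO replicate 2. Maml3, a second Mastermind gene, rose from 0.541 and 0.386 CPM to 2.25 and 1.5 CPM in KO (2.00 ± 0.30), and to 7.16 and 7.82 CPM in D395A (4.0 ± 0.29), so Maml2 and Maml3 moved in opposite directions in both lines. Maml1, named after its values were seen and the most abundant of the 3 by CPM (48.6 and 44.7 CPM in WT), rose by 1.22 ± 0.07 in KO and by 1.26 ± 0.07 in D395A. Rbpj, named here after its values were seen, had 242 and 247 CPM in WT, 295 and 328 in KO and, in D395A, 175 and 199. As for Hes1, it was higher in KO (0.35 ± 0.08, adjusted p = 0.0015) and lower in D395A (-0.39 ± 0.08, adjusted p = 0.00064). Of the 11 nuclear partners, KO had 7 higher and 1 lower, and D395A 7 higher and 3 lower.

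**Figure D4:**
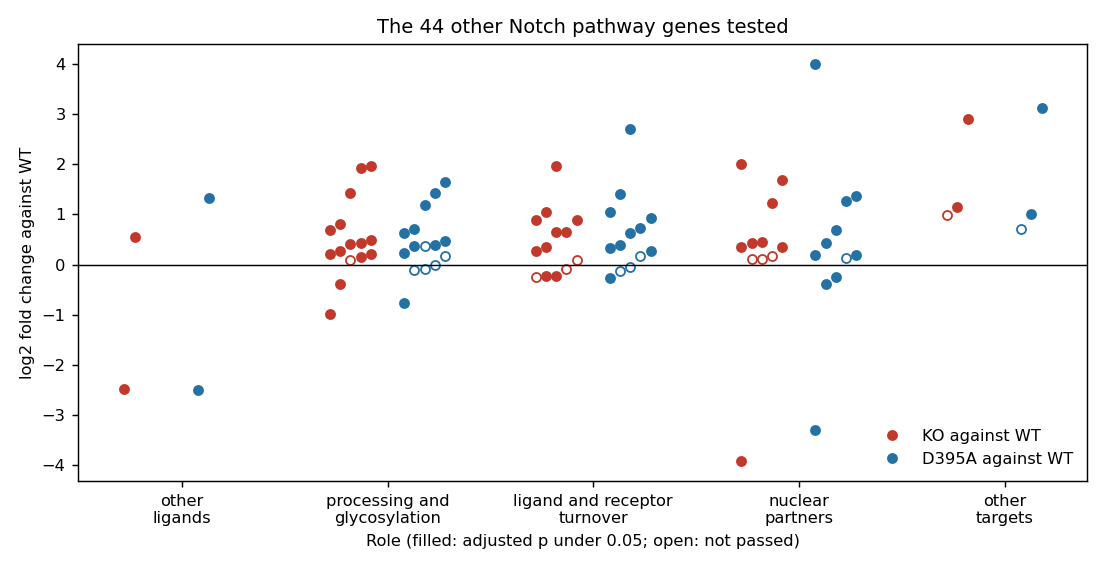
Log2 fold change against WT of the 44 other pathway genes tested, by role, in KO and in D395A; each point is 1 gene, filled where the adjusted p was under 0.05. Most filled points lie above 0 in both lines, and the lowest are Maml2 among the nuclear partners (-3.92 and -3.30) and Dner among the ligands (-2.48 and -2.50).

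Of the remaining ligands, Jag2 rose by 0.56 ± 0.10 in KO (from 10.1 and 9.95 CPM to 15.7 and 13.8 CPM) and by 1.33 ± 0.10 in D395A (26.5 and 24.0 CPM). Dner, a neuronal Notch ligand, fell from 2.78 and 2.37 CPM to 0.284 and 0.634 CPM for KO and 0.426 and 0.471 CPM in D395A. The log2 fold change of Dner in KO was -2.48 ± 0.44, or -3.16 without KO replicate 2. Genes that ubiquitinate or sort ligands and receptors were higher in 8 of 13 cases and lower in 2 in KO, and higher in 9 and lower in 1 in D395A. The 2 largest changes in KO were those of Neurl1b, a ligase of ligands (1.96 ± 0.17), and Dtx2, a Deltex ligase (1.04 ± 0.07). In D395A they were those of Neurl1b (1.40 ± 0.18) and Dtx4, another Deltex ligase, which went from 4.55 and 3.80 CPM in WT to 6.63 and 6.48 CPM for KO and 25.6 and 28.6 CPM in D395A (2.7 ± 0.12).

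Other targets were scarce, and 3 of 7 were tested, of which 2 were higher and none lower in each mutant line. Nrarp, a feedback inhibitor that Notch itself induces, rose by 1.14 ± 0.15 in KO (from 3.20 and 3.58 CPM to 7.88 and 7.00 CPM) and by 1.00 ± 0.15 in D395A (6.47 and 7.01 CPM). Exons of Gm38287 cover 79.4% of Nrarp exon bases on the opposite strand, so the source of these counts is uncertain. Hes7 held 2 and 4 counts in WT, 27 and 16 in KO and, in D395A, 18 and 24. On these few counts it was higher by 2.91 ± 0.72 in KO (adjusted p = 0.0033) and by 3.13 ± 0.72 in D395A (adjusted p = 0.0019). Hes5, the main Notch target of neural progenitors, was below the filter, with 3 and 4 counts in WT, 0 and 2 in KO and, in D395A, 24 and 1.

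Over the 6 libraries, the genes whose log2 levels relative to WT lay closest to those of Notch2, which of the 10 changed most in KO, were Ston1 (distance 0.13), Fam110a (0.17) and Ephb2 (0.17). For Dll1, which of the 10 changed most in D395A, they were Minar2 (0.76), Tmem229a (0.79) and Sorbs2 (0.86). These distances rest on 3 groups of 2 libraries that share 1 reference.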

How the data were processed

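Ribosomal RNA was depleted from total RNA and directional libraries were made, per the labels' protocols. The authors deposited 1 table of raw HTSeq counts per library. The submitters' processing notes name Trimmomatic 0.36, STAR 2.7, HTSeq 0.11.2 and the build mm10. The sources used here give neither the annotation release nor the strand setting of the counting, so counts of genes that overlap on opposite strands are uncertain. Summary lines of HTSeq (29.0% to 44.2% of each file's total) were left out.

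The test was that of edgeR 4.0.16 (R 4.3.3), with filterByExpr, TMM factors, and the quasi-likelihood F test with all 6 libraries in 1 model, leaving 3 residual degrees of freedom, with Benjamini-Hochberg adjustment over the 15663 genes of each comparison and 0.05 as the threshold. SE and 95% intervals come from that fit. On simulated data with 2-fold changes the test recovered 79.3% of them for KO against WT (15290 genes) and 75.3% for D395A and WT (15296). Between the mutant lines it recovered 63.8% (15286), and 7.65%, 8.02% and 10.7% of the calls were false. The simulation changed only 198, 198 and 196 genes, a far smaller part than was called in these data. Both rates depend on that part, so they do not carry over. DESeq2 1.42.0 and limma 3.58.1 served as alternatives. Levels between genes were compared per kilobase of merged exons (GENCODE M21, GRCm38).

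The genes and lists were chosen with earlier results of these data known. All 10 genes are named; of the other pathway genes, up to 2 per role with the largest change past the test and a mean of at least 1 CPM are named for each comparison with WT.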

Additional observations from a re-analysis of the deposited data

Results flagged for a closer look

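For 13 of 22 genes, the KO and D395A lines differed from each other by edgeR's quasi-likelihood test. This is also the test of whether their differences from WT are equal, since both use the same WT libraries. The 22 are the 10 genes described, the pathway genes named by the fixed rule, and Rbpj, which was added after its values were seen. Maml1, also named after its values were seen, is not among them and did not differ (0.04, adjusted p = 0.59). Over all genes tested 26.5% were higher and 23.8% lower in D395A than in KO, and the 5 of the 10 genes below are close to that share. Values are D395A minus KO on the log2 scale. Of the 10 genes described, these are Notch4 (-2.23, adjusted p = 1.3e-07), Dll1 (3.23, adjusted p = 3.4e-05), Hes1 (-1.17, adjusted p = 7.6e-08), Hes6 (0.58, adjusted p = 0.0015) and Hey1 (0.99, adjusted p = 0.026). For Notch4 and Hes6 both lines lay on the same side of WT, and for Hes1 they lay on opposite sides.

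Among the other pathway genes, D395A was above KO for the ligand Jag2 (0.77), the coactivator gene Maml3 (2.00), the Fringe gene Lfng (2.42) and the Deltex ligase gene Dtx4 (2.05). It was below KO for Psen2 (-0.77), Furin (-0.28), Neurl1b (-0.57) and Rbpj (-0.74).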

How the results depend on the processing

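Counts of calls stayed within 1.5 times in each alternative run: other scaling, filters, tools, robust estimation, 2-group fits, totals without Rn45s, the replicate block and each library left out. With the replicate block, 6, 7 and 5 of the 10 genes were called for KO and D395A against WT and between the mutant lines (6, 8 and 5 without it). The block ended the call of Hey1 for D395A against WT (log2 value 0.84) and of Lfng for KO against WT. It ended no other call of the 22 genes followed here, which leave out Maml1. The labels do not say whether replicate numbers pair the libraries. Same-numbered libraries deviated from their group means with a correlation of 0.01 (WT and KO), -0.00 (WT and D395A) and -0.22 (KO and D395A). Such correlations over all genes cannot show whether same-numbered libraries were prepared together. A pairing crossed between KO and D395A, added after seeing the data, called 7716 genes and 5 of the 10 for D395A against KO, against 7889 and 5.

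The 10 genes kept direction and side of the threshold in 140 of 150 values for KO against WT, 136 of 150 for D395A against WT and 139 of 150 for D395A against KO. Reversals were among differences that had not passed. Notch3 in D395A against WT was at -0.00 with DESeq2 size factors, without a filter, without Rn45s and with DESeq2, Jag1 in D395A against KO at -0.01 in the 2-group fit, and Dner there at 0.10 with limma-voom. With single libraries left out, the ranges were, for KO against WT, -0.05 to 0.10 (Notch3), -1.18 to 0.36 (Dll1), -0.04 to 0.22 (Jag1) and -0.35 to 0.03 (Hey1). For D395A against WT they were -0.06 to 0.08 (Notch3) and -0.03 to 0.25 (Jag1). For D395A against KO they were -0.14 to 0.06 (Notch2), -0.08 to 0.04 (Notch3), -0.12 to 0.15 (Jag1) and -0.49 to 0.66 (Dner). In that comparison Notch1 also passed without a filter (-0.18) and under the stricter one (-0.16), Maml2 passed without KO replicate 1 (1.33), and Neurl1b did not without D395A replicate 2 (-0.40). The causes were not tested. Leaving out a library leaves its group with 1, assumed to vary like the others. Depth limits Dll1, Dll3 and Hey1, with 10 to 205 counts per library.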
